A study of Homo sapiens with 6 samples.

Results

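Small nucleolar RNAs and small Cajal body RNAs were examined in H660 prostate cancer cells that carried an inducible MUC1 shRNA. Libraries of cells given doxycycline (DOX) to switch it on were compared with libraries of cells given vehicle. Entries of the count table were taken by symbol, as C/D box RNAs (SNORD and a number), H/ACA box RNAs (SNORA and a number) and Cajal body RNAs (SCARNA and a number), with SNORD3A left out. Of 567 such entries among 28008 gene symbols, 240 had at least 10 counts in at least 3 of the 6 libraries. These comprised 123 C/D box, 97 H/ACA box and 20 Cajal body RNAs. Of the other 327 entries, 177 had 0 counts in every library. Just inside the limit were SNORD30 with 10, 5, 6, 11, 2 and 14 counts, SNORA5B with 7, 7, 11, 10, 4 and 11 counts, and SNORD79 with 11, 7, 10, 10, 4 and 10 counts, in the order DOX-negative replicates 1 to 3 and DOX-positive replicates 1 to 3. Just outside were SNORA63B with 6, 10, 9, 23, 3 and 9 counts, SNORA30 with 14, 5, 9, 8, 7 and 9 counts, and SNORD145 with 9, 3, 13, 7, 14 and 6 counts.

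C/D box RNAs pair with other RNAs and guide fibrillarin to add a methyl group to the ribose of the paired base, mostly in ribosomal RNA. H/ACA box RNAs guide dyskerin to turn uridine into pseudouridine. Cajal body RNAs guide the same reactions on the small nuclear RNAs of the spliceosome, and a few members of these families, among them the U3, U13 and U17 RNAs, work in the cutting or other maturation of the ribosomal RNA precursor instead. Most human members are cut from introns of a host gene after splicing, and their ends are protected by the proteins bound to them rather than by a cap and a poly(A) tail.

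H660 is an established line of neuroendocrine prostate cancer. Every library came from H660 cells that carried the same tetracycline-inducible MUC1 shRNA, introduced with a lentivirus and kept by puromycin selection. Whether the cells were a pool or a clone was not established here. DOX-negative cells (n = 3) received 0.1% DMSO as vehicle and DOX-positive cells (n = 3) received doxycycline at 500 ng/ml. A control shRNA with doxycycline was not analysed here, so silencing of MUC1 and exposure to doxycycline cannot be told apart. The labels name a triplicate culture and do not say how independent the cultures were, so p values measure the spread between these samples, which may be technical.

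The depth of the 6 libraries ran from 47620696 counts in DOX-negative replicate 3 to 74061121 counts in DOX-positive replicate 3. MUC1, the shRNA target, was lower in the DOX-positive libraries in edgeR's quasi-likelihood test (log2 fold change -1.32 ± 0.10 SE, adjusted p = 0.000173), and the groups did not overlap. All 8 neuroendocrine markers examined passed the filter on low counts, and 2 of them (25%, beside 4.87% of all genes tested), INSM1 and NCAM1, fell with doxycycline. Of the others, 3 had a log2 fold change below 0 and 3 above 0, up to 0.29 for CHGB (adjusted p = 0.175). The summed level of the 8 was 895 to 1007 normalized CPM (counts relative to the library total after its TMM factor) in DOX-negative libraries and 800 to 890 CPM in DOX-positive libraries. Of the luminal prostate markers KLK3 had 0 counts in every library. The 5 leukocyte markers summed to 1.36 to 1.71 CPM and 1.53 to 1.89 CPM, with CD3E at 0. The 5 fibroblast markers summed to 25.1 to 30.5 CPM and 23.4 to 27.9 CPM, with COL3A1 at 0, while LUM and COL1A1 rose with doxycycline. COL1A2, the most abundant of these in DOX-negative libraries, had a log2 fold change of -0.71 (adjusted p = 0.203). Without DOX-negative replicate 3 these 4 marker calls were lost (adjusted p = 0.167, 0.0824, 0.138 and 0.115 for INSM1, NCAM1, LUM and COL1A1). The part of these marker changes in the results below was not tested.

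Some of the RNAs named below are shown with the conserved boxes found in them. These letters went with the class in most C/D box and H/ACA box RNAs with a sequence. Cajal body RNAs can hold either kind of box, so there the letters do not give the class. Sequences are the GENCODE v29 transcripts (GRCh38), 5′ to 3′ in the strand given, and coordinates are on GRCh38. Capitals near the start mark the C box as searched (ATGATGA or GTGATGA in the first 20 bases) and those near the end of C/D box RNAs mark the D box as searched (CTGA in the last 12 bases). SNORD22 held no such letters near its start.
SNORD17 (chr20:17962710-17962946, minus strand, in an intron of SNX5): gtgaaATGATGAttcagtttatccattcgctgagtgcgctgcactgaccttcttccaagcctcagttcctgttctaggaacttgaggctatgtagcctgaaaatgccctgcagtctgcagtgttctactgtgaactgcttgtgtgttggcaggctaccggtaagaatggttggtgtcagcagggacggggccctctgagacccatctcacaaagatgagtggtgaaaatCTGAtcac
SNORD15A (chr11:75400391-75400538, plus strand, in an intron of RPS3): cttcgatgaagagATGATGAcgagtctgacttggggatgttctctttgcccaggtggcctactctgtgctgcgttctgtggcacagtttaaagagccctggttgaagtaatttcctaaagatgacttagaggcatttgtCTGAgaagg
SNORD22 (chr11:62852910-62853035, minus strand, in an intron of SNHG1): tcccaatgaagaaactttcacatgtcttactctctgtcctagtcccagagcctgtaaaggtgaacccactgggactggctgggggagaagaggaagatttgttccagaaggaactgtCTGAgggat
SCARNA10 (chr12:6510222-6510551, plus strand, in an intron of NCAPD2; its first 150 of 330 bases): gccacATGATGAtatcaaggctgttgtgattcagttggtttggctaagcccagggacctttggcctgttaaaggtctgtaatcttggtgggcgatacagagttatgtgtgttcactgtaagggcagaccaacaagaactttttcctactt
SNORD116-20 (chr15:25087662-25087753, plus strand, within SNHG14): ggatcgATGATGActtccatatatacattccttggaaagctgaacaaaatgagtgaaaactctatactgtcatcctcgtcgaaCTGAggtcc

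Of the 90 C/D box RNAs with a sequence, 57 (63.3%) held TGATGA within the first 20 bases and 76 (84.4%) held CTGA within the last 12 bases, and of the 84 H/ACA box RNAs with a sequence these shares were 0% and 2.38%. ACA followed by 3 bases ended 60 H/ACA box RNAs (71.4%) and 2 C/D box RNAs (2.22%). The class given by the symbol therefore went with the boxes in most of the RNAs with a sequence. Among the 15 Cajal body RNAs with a sequence, 5 held both C/D letters and 7 held the ACA ending. Of the 189 RNAs with a sequence, 37 had a copy of at least 90% identity elsewhere, such as SNORA73A and SNORA73B at 93.2%, and their counts are uncertain where reads could be split between copies.

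DOX-negative replicate 3 stood apart from the other libraries in these RNAs. It held the highest normalized value for 148 of the 240 RNAs (61.7%), while it was highest for 24.0% of all genes tested. By class, it was highest for 70 C/D box, 68 H/ACA box and 10 Cajal body RNAs. The median H/ACA box RNA lay 0.62 above its own mean over the 6 libraries on the log2 scale in this library, and 0.05 and 0.03 above it in DOX-negative replicates 1 and 2. The corresponding medians of the DOX-positive libraries were -0.15, -0.21 and -0.29. For C/D box RNAs the medians were 0.05, 0.03 and 0.40 in DOX-negative and -0.05, -0.26 and -0.10 in DOX-positive replicates 1, 2 and 3. For Cajal body RNAs they were 0.08, -0.02 and 0.29, and then -0.10, -0.09 and -0.11. Every DOX-negative median of a class was thus above every DOX-positive median of that class, with DOX-negative replicates 1 and 2 near 0 and replicate 3 well above it. The same quantity over all genes tested stayed between -0.0003 and 0.02 in the 6 libraries, which the TMM scaling largely sets in advance. Calls, class medians and the results that this library moved most are therefore given below with it and without it.

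**Figure D1:**
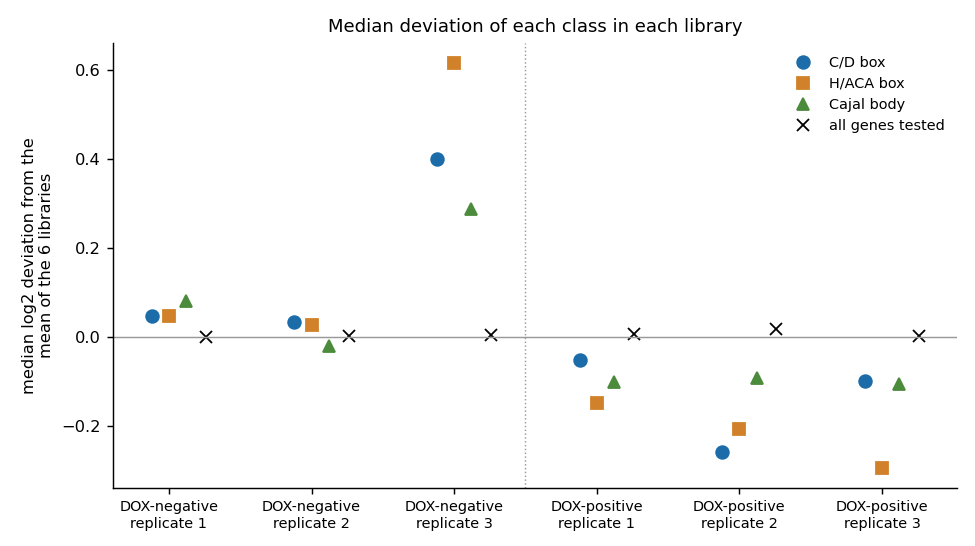
Median log2 deviation of each class from the mean of the 6 libraries (y axis), by library (x axis), with the 3 classes as coloured symbols and all genes tested as crosses. DOX-negative replicate 3 is highest for each class, at 0.40, 0.62 and 0.29, and the DOX-positive libraries lie below 0. All genes tested lie near 0, where the TMM scaling tends to place them.

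With SNORD3A left out, the abundance of each class was concentrated in a few RNAs. SNORD3A, itself a C/D box RNA, was far above all of these C/D box RNAs, at 5872 to 16000 CPM. Of the C/D box counts without it, SNORD17, a guide for the large ribosomal RNA, took 44.6%. With SNORD3C, SNORD13, SNORD3D and SNORD133 it made up 69.0%. Whether reads of SNORD3A were counted for SNORD3C and SNORD3D, which are also U3 copies, was not tested. SNORA73A took 29.2% of the H/ACA box counts, and with SNORA73B, SNORA48, SNORA57 and SNORA68 made up 64.3%. SNORA73A and SNORA73B are copies of U17, which acts in the cutting of the ribosomal RNA precursor. SCARNA10 took 45.3% of the Cajal body counts, and with SCARNA2, SCARNA7, SCARNA12 and SCARNA17 made up 91.6%. SCARNA10, also known as U85, holds both kinds of box and guides modification of the U5 small nuclear RNA. Per kilobase of RNA, the mean level over the 6 libraries was 1982 CPM for SCARNA10, 1237 CPM for SCARNA2, 516 CPM for SNORD17 and 496 CPM for SNORA73A. At the other end, 165 of the 240 RNAs had a mean under 50 counts and 88 had a mean under 20 counts. The libraries were made with an mRNA kit from column-purified RNA, steps known to lose RNAs without a poly(A) tail and short RNAs, and the share of each RNA that was kept was not measured. RN7SK, which has no poly(A) tail, was nevertheless at 56758 to 80591 CPM, and the list of 26 other small structured RNAs, which includes it, summed to 110057 to 178369 CPM. How far the libraries were selected for poly(A) cannot be told from the counts, so the levels of RNAs without a tail are levels in these libraries only.

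Without SNORD3A, the summed counts of each class, as a share of the library, were lower in every DOX-positive library than in any DOX-negative library. SNORD3A alone was at 9295, 8263 and 16000 normalized CPM in DOX-negative and 5872, 10072 and 8585 CPM in DOX-positive replicates 1, 2 and 3. Its groups overlapped and its level was far above the C/D box sums given here. A C/D box sum that includes it was not taken. In CPM of the total count, without TMM factors, C/D box RNAs took 300.2, 292 and 417 CPM in DOX-negative and 219, 198.6 and 193 CPM in DOX-positive replicates 1, 2 and 3. H/ACA box RNAs took 330, 291 and 656, and then 280, 260 and 268 CPM. The distance between the lowest DOX-negative and the highest DOX-positive share was small in this class, and the third DOX-negative share was far above both others. Cajal body RNAs took 1475, 1483 and 1808, and then 1253, 1392 and 1188 CPM. The log2 ratio of the mean shares was -0.73, -0.66 and -0.31 for C/D box, H/ACA box and Cajal body RNAs. Without DOX-negative replicate 3 these ratios were -0.54, -0.20 and -0.21. In bulk RNA, fewer cells that hold an RNA and less of it per cell cannot be told apart.

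Of the 240 RNAs, 234 passed the filter on low counts in the edgeR test, and SNORA5B, SNORA14A, SNORD13F, SNORD30, SNORD79 and SNORD132 did not. By edgeR's adjusted p under 0.05, 5 RNAs were called lower with doxycycline and 0 were called higher. They were SNORD17, SNORD15B, SNORD22, SNORA68B and SCARNA10. The 5 calls are 2.14% of the RNAs tested, against 4.87% of all 17026 genes tested (1.96% called lower and 2.91% called higher), so the share of calls was not above the background. DESeq2 called 11 of these RNAs, all lower, beside 8.43% of all genes, and limma-voom called 2, SNORD17 and SNORA68, beside 3.97%. At an unadjusted p under 0.05, 39 were lower and 1 was higher, together 17.1%, beside 21.1% of all genes (9.53% lower and 11.6% higher). The directions were unequal: 193 of 234 (82.5%) had a log2 fold change below 0, beside 49.9% of all genes. In 55 of the 234 (23.5%) all 3 DOX-positive values lay below all 3 DOX-negative values, beside 13.3% of all genes. The reverse order was found in 1, SNORA40, beside 14.8% of all genes. With DOX-negative replicate 1, 2 or 3 left out, 7, 1 and 1 RNAs were called, and with DOX-positive replicate 1, 2 or 3 left out, 4, 2 and 1. Over all genes 633, 127 and 58, and then 1035, 828 and 375, were called in these fits, so the calls moved across the whole table. SNORD17 was among the RNAs called in 5 of the 6 cases. In the other, without DOX-positive replicate 2, SNORA63 was called higher. Precision was lower than for most genes, with a median SE of 0.32 on the log2 scale among these RNAs and 0.10 among all genes tested.

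SNORD17 had the smallest adjusted p among these RNAs. Its normalized level was 146, 149 and 203 CPM in DOX-negative and 82.5, 92.1 and 60.9 CPM in DOX-positive replicates 1, 2 and 3. All 3 DOX-positive values were well below the DOX-negative values. The means were 166 ± 31.9 and 78.5 ± 15.97 CPM (SD, n = 3). The difference was -1.08 ± 0.17 SE on the log2 scale, or 2.12-fold lower (edgeR adjusted p = 0.0138). Between 4492 and 9666 counts per library stood behind these values. Without DOX-negative replicate 3 the log2 fold change was -0.92 (adjusted p = 0.0372), and SNORD17 was then the only RNA of the 3 classes called, beside 0.337% of all genes. Without DOX-positive replicate 2 its log2 fold change was -1.21 and the call was lost (adjusted p = 0.0619). The call was also lost in a fit with a replicate block, and on TPM without a filter (adjusted p = 0.412 in limma-trend), where MUC1 was not called either.

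SCARNA10 differed by less and was measured with more counts, between 35151 and 44214 per library. Its level was 675, 715 and 884 CPM in DOX-negative and 533, 641 and 477 CPM in DOX-positive libraries. The highest DOX-positive value lay close under the lowest DOX-negative value. The log2 fold change was -0.46 ± 0.12 SE, or 1.38-fold lower (edgeR adjusted p = 0.0494), and -0.34 (adjusted p = 0.215) without DOX-negative replicate 3. The call was also lost without DOX-negative replicate 2, DOX-positive replicate 1 or DOX-positive replicate 3 (adjusted p = 0.109, 0.0929 and 0.134). SCARNA2, the next in abundance and a guide for the U2 small nuclear RNA, had 514, 502 and 621 CPM and then 458, 560 and 461 CPM. These groups overlapped, and the log2 fold change of -0.15 ± 0.10 SE was not called (adjusted p = 0.462, and -0.05 without DOX-negative replicate 3).

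SNORD15B, a guide for the large ribosomal RNA, was at 2.41, 2.51 and 4.16 CPM in DOX-negative and 1.88, 1.45 and 1.45 CPM in DOX-positive libraries. The log2 fold change was -0.90 ± 0.22 SE (adjusted p = 0.0354), and -0.62 (adjusted p = 0.142) without DOX-negative replicate 3. The call was also lost without DOX-negative replicate 2 or DOX-positive replicate 2 or 3 (adjusted p = 0.0657, 0.0902 and 0.0962). Its relative SNORD15A, from another intron of RPS3, was at 0.63, 0.50 and 1.07 CPM and then 0.48, 0.47 and 0.37 CPM. The order of the libraries was alike and the groups did not overlap, but the log2 fold change of -0.72 ± 0.30 SE was not called (adjusted p = 0.20) and was -0.37 without DOX-negative replicate 3.

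SNORD22, known as U22 and needed for maturation of the small ribosomal RNA in frog oocytes, was at 0.99, 1.00 and 1.49 CPM in DOX-negative and 0.66, 0.53 and 0.61 CPM in DOX-positive libraries, from 29 to 71 counts. The log2 fold change was -0.93 ± 0.23 SE (adjusted p = 0.0409), and -0.72 (adjusted p = 0.167) without DOX-negative replicate 3. SNORA68B was at 0.42, 0.53 and 1.18 CPM in DOX-negative and 0.24, 0.16 and 0.23 CPM in DOX-positive libraries, from 9 to 56 counts. Its log2 fold change was -1.68 ± 0.40 SE (adjusted p = 0.0354), and -1.15 (adjusted p = 0.14) without DOX-negative replicate 3. SNORA68, of the same family and a guide for the large ribosomal RNA, had more counts, between 341 and 2056 per library, at 16.7, 14.3 and 43.2 CPM and then 10.4, 6.20 and 6.17 CPM. Its log2 fold change of -1.69 ± 0.56 SE was of the same size but was not called (adjusted p = 0.193). In 3 of 16 other fits it was called: DESeq2, limma-voom and edgeR without robust estimation. DOX-negative replicate 3 was more than the sum of the other DOX-negative libraries, and without it the value was -1.03. The calls of SNORD22 and SNORA68B held without DOX-negative replicate 1 and were lost without any other library, with adjusted p up to 0.167 and 0.14. Whether reads of SNORA68 were counted for SNORA68B was not tested.

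**Figure D2:**
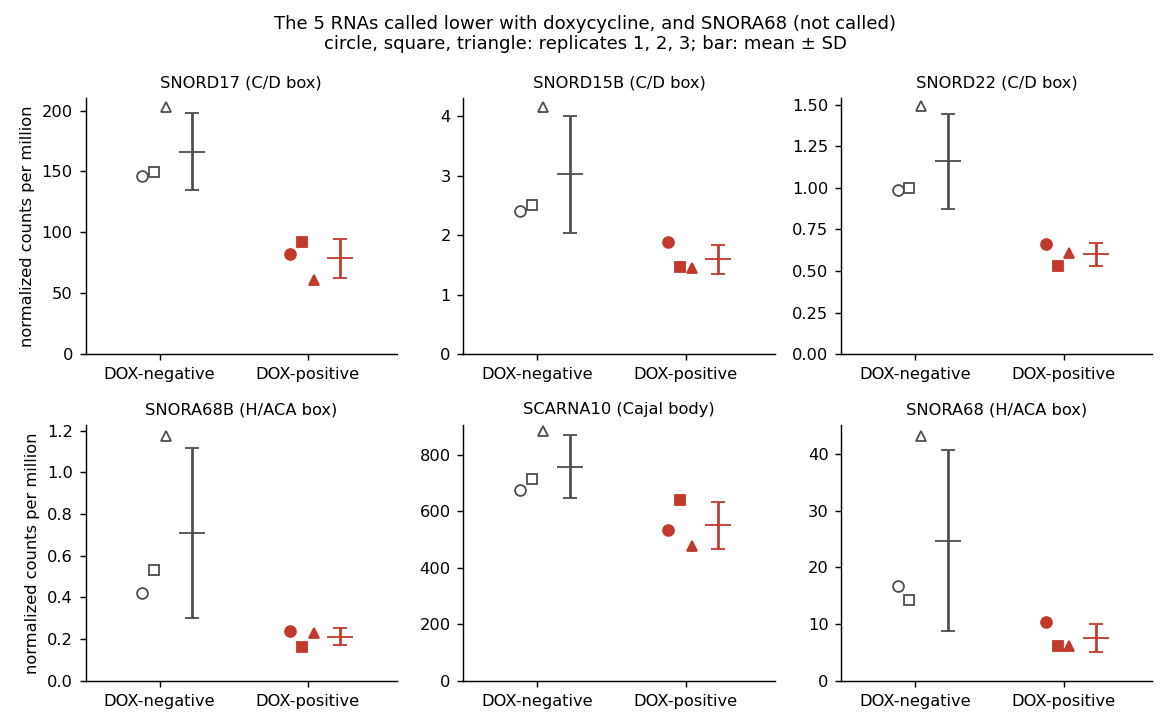
Normalized CPM (y axis, from 0) in DOX-negative (open) and DOX-positive (filled) libraries for the 5 RNAs called lower and for SNORA68, with circle, square and triangle for replicates 1, 2 and 3 and bars for the mean ± SD. The groups do not overlap in any panel, and DOX-negative replicate 3 is the highest library in each.

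Among the C/D box RNAs, 119 were tested, of which 94 had a log2 fold change below 0 and 25 above 0. The median was -0.25, with a range of -1.30 to 0.92, beside 0.0003 over all genes tested, and -0.16 without DOX-negative replicate 3. The groups did not overlap in 26 (21.8%), all lower, beside 13.3% of all genes. SNORD13 (U13), which acts on the small ribosomal RNA, was at 8.01, 8.44 and 12.3 CPM and then 7.70, 2.36 and 4.65 CPM. The DOX-positive values spread more than 3-fold, and the log2 fold change of -0.95 ± 0.43 SE was not called (adjusted p = 0.290). The U3 copies SNORD3C and SNORD3D had log2 fold changes of -0.61 ± 0.26 SE and -0.23 ± 0.10 SE (adjusted p = 0.246 and 0.232), and -0.29 and -0.27 without DOX-negative replicate 3. SNORD133 was at 5.85, 5.75 and 5.90 CPM in DOX-negative and at 6.26, 2.62 and 8.68 CPM in DOX-positive libraries. Its DOX-positive values lay on both sides of the DOX-negative ones, with a log2 fold change of 0.02 ± 0.39 SE.

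Among the H/ACA box RNAs, 95 were tested, of which 83 had a log2 fold change below 0 and 12 above 0. The median was -0.44, with a range of -1.69 to 0.39, and -0.21 without DOX-negative replicate 3. The groups did not overlap in 26, of which 25 were lower (26.3%, beside 13.3% of all genes). SNORA21 was at 1.64, 1.68 and 3.47 CPM and then 1.23, 0.78 and 1.06 CPM, a log2 fold change of -1.11 ± 0.29 SE that fell just short of a call (adjusted p = 0.0501) and was -0.69 without DOX-negative replicate 3. In 4 of 16 other fits it was called: DESeq2, a fit with a replicate block, and without DOX-negative replicate 1 or DOX-positive replicate 1. SNORA73A was at 85.7, 70.0 and 210 CPM in DOX-negative and 74.3, 94.2 and 82.4 CPM in DOX-positive libraries. Only DOX-negative replicate 3 lay above the DOX-positive range. The log2 fold change was -0.54 ± 0.49 SE (adjusted p = 0.607), and 0.10 without that library. SNORA73B, SNORA48 and SNORA57 had log2 fold changes of -0.65 ± 0.30, -0.95 ± 0.44 and -0.70 ± 0.33 SE (adjusted p = 0.292, 0.314 and 0.306), and their DOX-negative replicate 3 was the highest library as well. Without it the values were -0.27, -0.39 and -0.26.

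All 20 Cajal body RNAs were tested, of which 16 had a log2 fold change below 0 and 4 above 0. The median was -0.19, with a range of -0.82 to 0.43, and -0.18 without DOX-negative replicate 3. The groups did not overlap in 4 (20% of the class), all lower, beside 13.3% of all genes. SCARNA7, a guide for the U1 small nuclear RNA, and SCARNA12 had log2 fold changes of -0.20 ± 0.10 SE and -0.16 ± 0.15 SE (adjusted p = 0.297 and 0.587), and -0.20 and -0.05 without DOX-negative replicate 3. SCARNA17 was at 37.3, 34.7 and 37.1 CPM and then 38.0, 32.8 and 36.4 CPM, so that the groups overlapped in full. SCARNA22 and SCARNA5 had the lowest fold changes of the class among those with a mean of at least 50 counts, at -0.78 ± 0.39 SE and -0.64 ± 0.34 SE (adjusted p = 0.320 and 0.352). Without DOX-negative replicate 3 they were at -0.27 and -0.22. SCARNA22 was at 3.47, 3.51 and 8.17 CPM and then 3.86, 2.64 and 2.20 CPM, with DOX-positive replicate 1 above DOX-negative replicates 1 and 2.

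The 3 class medians stayed below 0 in each of 19 other fits, including other scalings of the libraries, each library left out in turn and 3 fits on TPM that held 29 or 31 of the RNAs. They ranged from -0.33 to -0.16 for C/D box, from -0.58 to -0.21 for H/ACA box and from -0.32 to -0.14 for Cajal body RNAs. The median over all RNAs of the 3 classes was -0.36 and, without DOX-negative replicate 3, -0.18, with 170 of 234 below 0. Differences between the classes were not tested. The RNAs with a mean of at least 50 counts had a median of -0.40 (75 tested, 67 below 0) and those with fewer had -0.35 (159 tested, 126 below 0), and without DOX-negative replicate 3 these were -0.20 and -0.17. By length, the median was -0.24 for the 97 RNAs under 100 bases, -0.43 for the 112 of 100 and under 200 bases and -0.43 for the 25 of 200 bases and over. Without that library these medians were -0.15, -0.19 and -0.22. The shortest H/ACA box RNA had 121 bases and the shortest Cajal body RNA had 125 bases. All RNAs under 100 bases were therefore C/D box, and length was not separated from class.

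**Figure D3:**
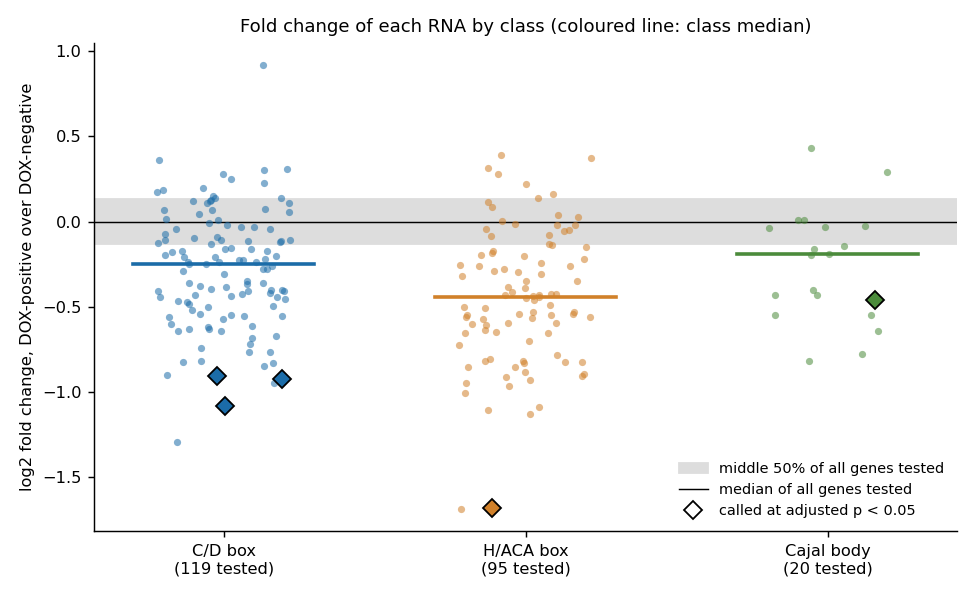
Log2 fold change of each RNA tested, DOX-positive over DOX-negative (y axis), by class (x axis), with coloured lines for the class medians, diamonds for the 5 called RNAs and the grey band for the middle 50% of all 17026 genes tested. The class medians of -0.25, -0.44 and -0.19 lie below the grey band, which runs from -0.13 to 0.13.

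Host genes were compared next, since most of these RNAs are cut from the transcript of another gene. A host that spans the whole RNA was found for 220 of the 240 RNAs, 208 in an intron and 12 touching an exon. The strand was checked for 174 of them and not for 46. The host was protein coding for 172 RNAs, a long noncoding RNA for 46 and a pseudogene for 2. Of the 20 RNAs without a host, which include SCARNA2, SNORD13, SNORD3C and SNORD3D, 14 had a log2 fold change below 0 and the median was -0.13, beside -0.02 without DOX-negative replicate 3. The median was -0.40 for the 168 tested with a protein-coding host and -0.35 for the 46 tested with a long noncoding or pseudogene host, and -0.20 and -0.18 without that library.

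The hosts themselves showed no such shift. In 213 pairs with both partners tested, over 139 hosts, the median log2 fold change was -0.39 for the small RNAs and -0.01 for the hosts. The small RNA was below its host in 170 pairs, and the median difference was -0.37 (-0.17 without DOX-negative replicate 3). Across the pairs Pearson's r was 0.003 and Spearman's rho was 0.01, as a description of pairs that share hosts, libraries and depth. Of the 139 hosts, 4 were called (2.88%, below the 4.87% of all genes): AIMP2, MAGED2 and SNHG14 were lower and SMOC1 was higher. Without DOX-negative replicate 3 these calls were lost (adjusted p = 0.135, 0.157, 0.0571 and 0.0775). SNX5, a sorting nexin of the endosome and the host of SNORD17, was at 49.7, 50.5 and 47.7 CPM and then 52.8, 46.5 and 57.0 CPM (log2 fold change 0.08 ± 0.09 SE). The groups overlapped, whereas those of SNORD17 did not. RPS3, a ribosomal protein gene and the host of SNORD15B, had a log2 fold change of -0.04 ± 0.08 SE, and SNHG1, the noncoding host of SNORD22, had 0.05 ± 0.09 SE. NCAPD2, a condensin subunit and the host of SCARNA10, had -0.05 ± 0.08 SE. ANKRD27, the host of SNORA68B, had -0.18 ± 0.07 SE. None of these 5 hosts was called, with adjusted p between 0.169 and 0.815, and 86 of the 213 small RNAs were below 0 while their host was above 0.

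**Figure D4:**
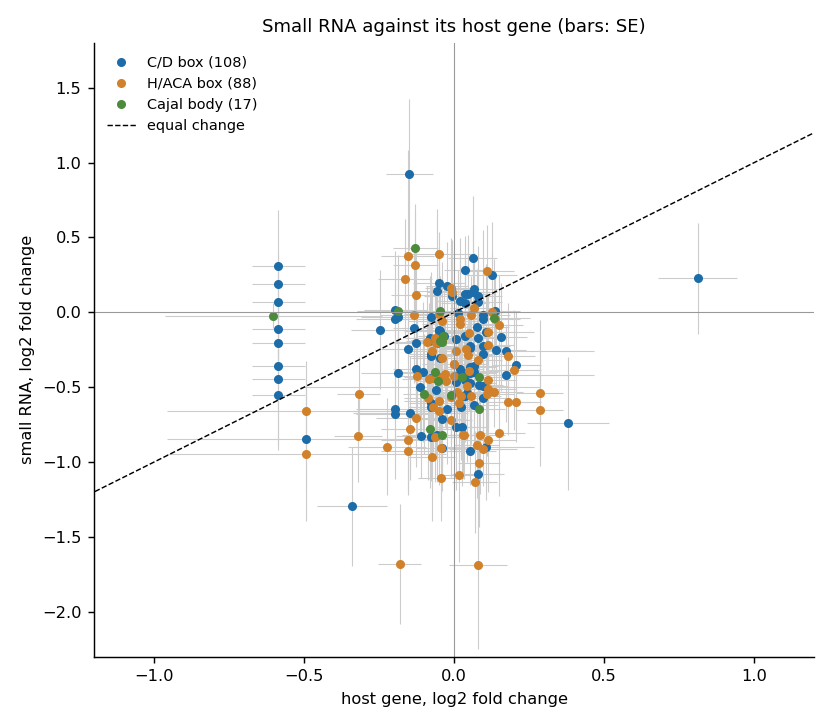
Log2 fold change of each small RNA (y axis) against that of its host gene (x axis) for 213 pairs, with bars for the SE and a dashed line for equal change. Hosts gather around 0 while the small RNAs spread downward, with medians of -0.01 and -0.39, and r is 0.003.

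Hosts with at least 3 of these RNAs numbered 17 and held 71 of them. SNHG14, the noncoding transcript of the imprinted Prader-Willi region, was the called host among these 17. It fell from 22.1, 22.4 and 23.9 CPM to 15.6, 13.9 and 15.98 CPM (log2 fold change -0.59 ± 0.09 SE, adjusted p = 0.00608, and 0.0571 without DOX-negative replicate 3). Of its 8 SNORD116 copies, C/D box RNAs without a known ribosomal RNA target, 5 were below 0 and 3 above 0. The median was -0.16, with a range of -0.55 to 0.31 and 0 called. The 3 above 0 had an SE larger than the value, at 0.31 ± 0.38, 0.187 ± 0.203 and 0.07 ± 0.27 SE. So did SNORD116-18 below 0, at -0.11 ± 0.17 SE. Summed, the 8 copies took 15.55, 14.63 and 15.52 CPM and then 12.04, 14.002 and 14.01 CPM. These sums did not overlap and were lower with doxycycline, as the host was, but their difference was not tested. The lowest DOX-negative sum (14.63 CPM) and the highest DOX-positive sum (14.01 CPM) lay close together. Among the copies, SNORD116-20, SNORD116-21, SNORD116-26 and SNORD116-27 touched an exon of SNHG14. Whether reads of SNHG14 were counted for them was not tested. SNORD116-20, shown above, was at 4.84, 4.72 and 4.26 CPM and then 3.43, 3.82 and 3.55 CPM. Its groups did not overlap, and the log2 fold change of -0.36 ± 0.12 SE was not called (adjusted p = 0.102). Because these copies are alike in sequence, their separate counts are uncertain.

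SNHG1 held 8 C/D box RNAs, of which 7 were tested. All 7 had a log2 fold change below 0, from -0.93 for SNORD22 to -0.23, with a median of -0.36 (-0.20 without DOX-negative replicate 3), beside 0.05 for SNHG1 itself. GAS5 held 6 C/D box RNAs, with 5 tested and all below 0 at a median of -0.22 (-0.08 without that library), beside 0.10 ± 0.09 SE for GAS5, although the strand of these RNAs was not checked. SNHG17 held 4 copies of SNORA71, all below 0 at a median of -0.48, which became -0.09 without DOX-negative replicate 3. EIF4A2, a translation initiation factor gene, held SNORA4, SNORA81 and SNORD2 below 0 and SNORA63 above 0. SNORA4 was at 0.69, 0.58 and 0.46 CPM and then 0.26, 0.36 and 0.30 CPM, which differed by -0.93 ± 0.27 SE on the log2 scale (adjusted p = 0.0710). SNORA63 was at 2.22, 2.26 and 1.62 CPM and then 3.11, 0.47 and 4.22 CPM, so its DOX-positive libraries lay on both sides of the DOX-negative ones.

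TAF1D, a subunit of the RNA polymerase I selectivity factor, held 6 RNAs with a median of -0.28 (-0.18 without DOX-negative replicate 3) and 1 above 0. That RNA, SNORA40, was at 1.78, 1.71 and 1.68 CPM in DOX-negative and 2.14, 2.11 and 2.52 CPM in DOX-positive libraries. All DOX-positive values were above all DOX-negative values, but the log2 fold change of 0.39 ± 0.15 SE was not called (adjusted p = 0.153). The RNAs of the noncoding host ZFAS1 had a median above 0, at 0.12 (0.33 without that library), with SNORD12 at 0.28, SNORD12C at 0.12 and SNORD12B at -0.16. In the other 16 of these 17 hosts the median was below 0, from -0.85 in SENP3-EIF4A1 to -0.05 in RPS12. Without that library the medians of 15 hosts were below 0, with SENP3-EIF4A1 at -0.38 and RPS12 above 0 at 0.08. SENP3-EIF4A1 is a read-through gene at 0.15 to 0.78 CPM that covers EIF4A1, and EIF4A1 itself was listed at 0 in all 6 libraries, so its value says little about EIF4A1. The ribosomal protein hosts RPL3, RPL13A, RPL7A, RPL23A and RPS12 had medians of -0.52, -0.43, -0.29, -0.45 and -0.05 for their RNAs, while the log2 fold changes of these 5 hosts were between -0.08 and 0.04. Without DOX-negative replicate 3 the medians were -0.33, -0.35, -0.19, -0.07 and 0.08.

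**Figure D5:**
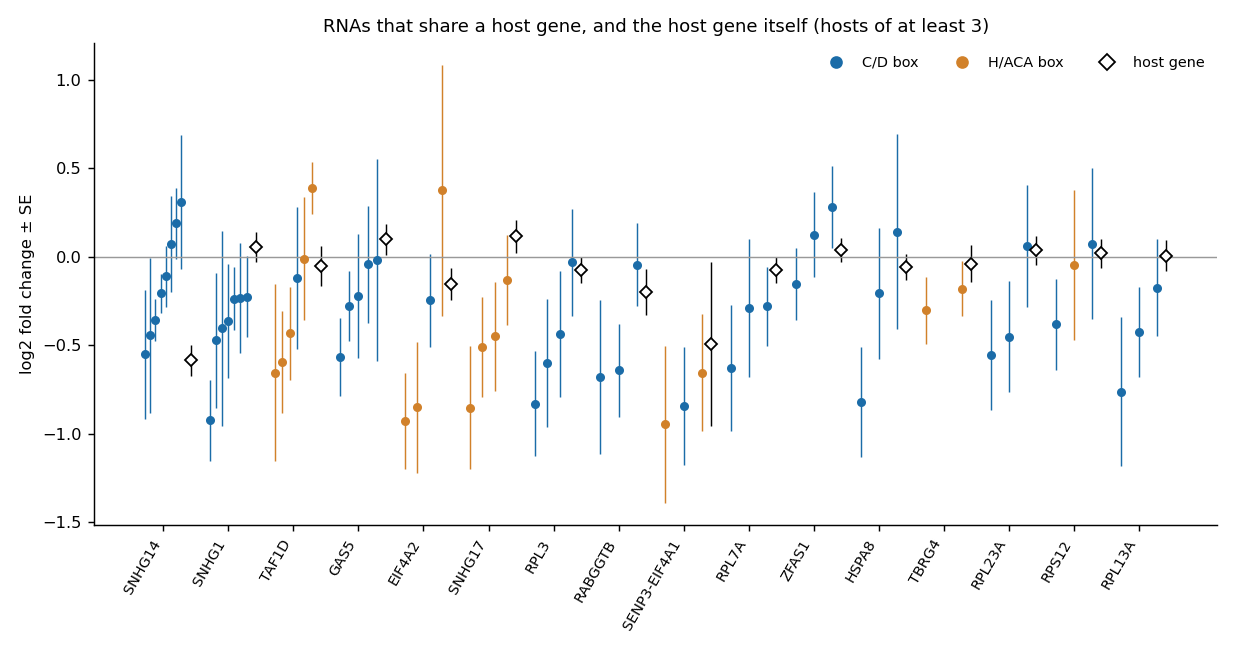
Log2 fold change ± SE (y axis) of each RNA tested, for 16 of the 17 host genes that hold at least 3 (x axis), with the host gene as an open diamond. The RNAs of SNHG1, GAS5, SNHG17 and RPL3 all lie below 0 with the host near 0, and SNHG14 lies at -0.59 with its 8 RNAs on both sides of 0.

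The proteins that bind these RNAs were examined from lists written from general knowledge. Of 13 C/D box proteins and assembly factors, 5 had a log2 fold change below 0 and 8 above 0, with a median of 0.04. By edgeR's adjusted p 0 of 13 were called, beside 4.87% of all genes. At an unadjusted p under 0.05 there were also 0 of 13, beside 21.1% of all genes. FBL (fibrillarin), the methyltransferase, was at 70.5, 68.4 and 69.2 CPM and then 69.6, 73.99 and 65.2 CPM (log2 fold change 0.004 ± 0.07 SE). Of 6 H/ACA box proteins and assembly factors, 2 were below and 4 above 0, with a median of 0.03. By edgeR 0 of 6 were called and 1 had an unadjusted p under 0.05, beside the same shares of all genes. DKC1 (dyskerin), the pseudouridine synthase, had a log2 fold change of 0.08 ± 0.07 SE. The levels of both enzymes overlapped between the groups.

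Of 9 Cajal body and trafficking factors, 8 were tested, with a median of 0.01, a range of -0.08 to 0.16 and 0 called by edgeR (0 at an unadjusted p under 0.05). COIL (coilin), the marker protein of the Cajal body, had a log2 fold change of -0.02 ± 0.09 SE. SMN1, which has a near-identical copy, was listed at 0. Of the factors that trim or degrade small RNA ends, 12 were tested, with a median of 0.001 and a range of -0.24 to 0.11, and 0 were called by edgeR (1 at an unadjusted p under 0.05). The exonuclease PARN had a log2 fold change of 0.03 ± 0.08 SE, and TENT4A, TENT4B and MTREX were not found under these symbols. DESeq2 and limma-voom also called 0 genes in these 4 lists, beside 8.43% and 3.97% of all genes. With edgeR calling 4.87% of all genes (21.1% at an unadjusted p under 0.05), 0 calls in lists this short say little.

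Of 22 noncoding host genes tested, 18 were above 0 and 4 below 0, with a median of 0.05. SNHG14 was the 1 called (4.55% of 22, beside 4.87% of all genes). Of 15 other small structured RNAs tested, 7 were below and 8 above 0, with a median of 0.05 and 1 called (6.67% of 15, beside 4.87% of all genes). That was RNU12, the U12 RNA of the minor spliceosome, which fell from 5.63, 6.24 and 6.66 CPM to 3.57, 3.87 and 3.44 CPM (log2 fold change -0.77 ± 0.12 SE, adjusted p = 0.00652, and 0.0571 without DOX-negative replicate 3). The other spliceosomal RNAs tested, looked at after their values were seen, were below 0 without a call, at -1.32 for RNU4-1, -1.16 for RNU4-2, -0.94 for RNU6ATAC and -0.65 for RNU4ATAC (adjusted p between 0.171 and 0.239). All 5 spliceosomal RNAs were highest in DOX-negative replicate 3, and without it these 4 were at -0.82, -0.82, -0.51 and -0.57. RN7SK, which regulates transcription elongation, had a log2 fold change of 0.10 ± 0.11 SE. The U3 gene SNORD3A, left out above, was at 9295, 8263 and 16000 CPM and then 5872, 10072 and 8585 CPM. It was highest in DOX-negative replicate 3 too, its groups overlapped, and its log2 fold change of -0.45 ± 0.33 SE was not called (adjusted p = 0.505), and was -0.11 without that library.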

How the data were processed

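RNA-seq was analysed in 3 DOX-negative and 3 DOX-positive libraries, grouped by their titles. Per the labels, column-purified total RNA was made into stranded mRNA libraries, and the submitters' processing notes name STAR, DESeq2 and GRCh38 (hg38). The aligner's version, the annotation and the strand setting of the counting are not given in the sources used here. The authors deposited whole-number counts per gene symbol, which were used for all main results. The authors also deposited TPM (counts scaled by gene length to a common total), which held 31 of the 240 RNAs and were used as an alternative. Columns of other series numbered 0.

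Counts were tested with edgeR 4.0.16 in R 4.3.3 (TMM factors, filterByExpr, robust glmQLFit, glmQLFTest) and adjusted by the Benjamini-Hochberg method over all 17026 genes tested, and an adjusted p under 0.05 was a call. SE were derived from the F statistic. All fold changes are on the log2 scale, with a negative value for a lower level in DOX-positive libraries. Total counts of 47620696 to 74061121 per library set the counting error. In simulated counts with 200 genes, drawn from all genes tested, changed by a log2 fold change of 1, the edgeR model recovered 87.9%. Of its calls 6.91% were false. The small RNAs had far fewer counts (a median of 27.8, beside 1125 over all genes tested). Recovery of such a change among them was not measured. No pair of libraries within a group differed by as little as sampling noise (chi-square per degree of freedom 15.6 to 95.1).

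Coordinates of all 240 RNAs came from RefSeq genes on GRCh38.p14, matched by symbol. Strand and sequence came from GENCODE v29 (GRCh38) for the 189 RNAs with at least 80% reciprocal overlap. The host was the gene on the same strand that spans the RNA, with the highest mean count where several did; for RNAs without a strand it was taken only if 1 gene spanned them. Motifs were read on the strand of the RNA only, and promoters were not used. A few genes and sequences are not reported here.

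Named RNAs were those called, the 5 most abundant of each class, the 2 of each class with the largest change among those with a mean of at least 50 counts, those of hosts with at least 3, and those at the limit of the rule. SNORD15A was named for its relative, and AIMP2, MAGED2 and SMOC1 were named after their values were seen. The RNAs and the lists of other genes were chosen with earlier results of these data known, and no test was run over a list. Alternatives were RLE and no scaling factors, library totals without small structured RNAs, 3 other filters, DESeq2 1.42.0, limma-voom and limma-trend on log2(TPM + 1) or log2(TPM + 0.1) (limma 3.58.1), a fit with robust estimation switched off, a replicate block and leaving out each library.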

Additional observations from a re-analysis of the deposited data

How the results depend on the processing

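Most of these RNAs had few counts, which limits what could be called: the median SE was 0.32, and a log2 fold change of 1 or more was reached downward by 8 of 234 (beside 0.576% of all genes). Counts of calls moved most, and the cause was not tested. The 5 calls (3 C/D box, 1 H/ACA box, 1 Cajal body) were made again with RLE, with no scaling factors, with library totals without small structured RNAs and with the rule's own filter. Without a filter there were 7 calls, 3 of them H/ACA box. With a mean of at least 50 counts, which left 75 RNAs, there were 3 calls, with 0 H/ACA box and 0 Cajal body. DESeq2 called 11 (8.43% of all genes), 7 of them H/ACA box. Limma-voom called 2, SNORD17 and SNORA68 (1 C/D box, 1 H/ACA box, 0 Cajal body). Without robust estimation there were 5 calls, 2 of them H/ACA box and 0 Cajal body. On TPM with a filter 2 of 29 were called under either pseudocount (1 C/D box, 1 H/ACA box, 0 Cajal body), and without the filter 0 of 31, 0 in each class, where MUC1 also lost its call (-1.22).

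Leaving out 1 library gave 1 to 7 calls (0 to 3 C/D box, 0 to 3 H/ACA box, 0 to 1 Cajal body). SNORA63 was called higher without DOX-positive replicate 2. The Cajal body median ranged from -0.32 to -0.17, and the log2 ratio of H/ACA box shares from -0.87 to -0.20. Pearson's r of RNA and host ranged from -0.032 to 0.13, and was -0.25 under the stricter filter of 50 counts and -0.085 on TPM without a filter. Called noncoding hosts numbered 0 to 2, with 2 without a filter and in DESeq2 (IPW and SNHG14) and 0 in each TPM fit. Called other small structured RNAs numbered 0 to 3, with 2 in DESeq2 and in the block fit and 0 in each TPM fit. Over all genes 829 were called, 1355 in DESeq2, 0 to 35 on TPM and 58 to 1035 with 1 library left out.

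Numbers did not pair the samples: the correlations of same-numbered deviations were -0.54, 0.02 and -0.10 over 14587 genes. With the replicate block 12 were called (and 998 of all genes), 4 C/D box, 6 H/ACA box and 2 Cajal body, without SNORD17. SNORD133 was then at -0.12, and it turned below 0 in limma-voom (-0.11) and in the TPM fits (-0.12). SNORA63 turned to -0.014 in limma-voom. Signs also turned when 1 library was left out, where values ranged from -0.37 to 0.36 for SNORD133, from -0.13 to 0.84 for SNORA63, from -0.070 to 0.036 for SCARNA17, from -0.82 to 0.097 for SNORA73A, and for the hosts from -0.12 to 0.063 for KPNA4, from -0.10 to 0.028 for NCAPD2, from -0.12 to 0.0076 for PHB2, from -0.11 to 0.015 for RPL23 and from -0.0094 to 0.13 for SNHG1.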
